A study of Mus musculus with 6 samples.

Results

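The enteroendocrine transcription factors are 9 genes, Isl1, Neurod1, Neurog3, Pax4, Pax6, Insm1, Nkx2-2, Rfx6 and Fev, of the 23462 genes with a RefSeq symbol on the array. They were chosen by name, and 15 non-control probes map to them: 4 to Pax6, 2 each to Isl1, Nkx2-2 and Fev, and 1 each to the other genes. All 9 had a probe that could be tested. Their expression was compared between colonic epithelium of 3 wild-type male mice and that of 3 male mice with knockout of miR-31, a microRNA, with 1 one-colour Agilent array per mouse. No treatment or time point is given for any mouse, and the strain, the age, the way the knockout was made and the cells it was made in are not given in the sources used here. The epithelium was flow separated, with no gate given. Each mouse is 1 replicate, numbered here in the order of deposit.

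Enteroendocrine cells are scattered hormone-secreting cells of the gut epithelium, and they are renewed from crypt stem cells through secretory progenitors. Neurog3, a basic helix-loop-helix factor, commits a progenitor to the endocrine fate, and Neurod1, Insm1, Pax4, Pax6, Nkx2-2, Rfx6, Isl1 and Fev act at or after that step in choosing and maintaining the hormone each cell makes. In the colon the products include glucagon-like peptide, peptide YY and somatostatin, and serotonin in enterochromaffin cells. A microRNA pairs with target messages mainly through its seed, bases 2 to 8, and lowers their level or translation. Endocrine cells are rare in the epithelium, so that in bulk tissue a lower signal from fewer such cells and one from less RNA in each cell cannot be told apart.

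The molecule that the knockout removes is shown first, with its seed in capitals (RefSeq, assembly GRCm38.p6, chromosome 4, minus strand). No probe carries the RefSeq accession of the miR-31 gene, so the deletion itself was not checked.
mmu-miR-31-5p: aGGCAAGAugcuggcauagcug
mmu-miR-31-3p: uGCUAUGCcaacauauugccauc

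The bases before the start site of 3 members are shown because these genes had the lowest log2 change (Isl1) and the 2 highest (Nkx2-2 and Neurod1) of the list. Neurog3 and Neurod1 bind E-boxes, CANNTG, and homeodomain factors such as Isl1 bind cores of TAAT. The sequences are those of RefSeq on assembly GRCm38.p6, 250 bases each, written 5′ to 3′ on the strand of the gene, with every CANNTG in capitals.
Isl1, chr13:116309689-116309938, minus strand: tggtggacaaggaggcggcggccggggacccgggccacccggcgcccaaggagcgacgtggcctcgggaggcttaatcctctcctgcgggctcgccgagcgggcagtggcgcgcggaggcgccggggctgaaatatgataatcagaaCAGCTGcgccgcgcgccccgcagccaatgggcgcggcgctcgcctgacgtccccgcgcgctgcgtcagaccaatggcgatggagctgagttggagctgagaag
Neurod1, chr2:79456637-79456886, minus strand: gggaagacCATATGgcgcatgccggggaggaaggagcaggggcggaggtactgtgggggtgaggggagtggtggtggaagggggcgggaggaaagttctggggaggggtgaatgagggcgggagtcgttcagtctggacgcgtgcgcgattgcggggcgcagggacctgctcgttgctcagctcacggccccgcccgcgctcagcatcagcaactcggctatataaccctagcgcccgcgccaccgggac
Nkx2-2, chr2:147186403-147186652, minus strand: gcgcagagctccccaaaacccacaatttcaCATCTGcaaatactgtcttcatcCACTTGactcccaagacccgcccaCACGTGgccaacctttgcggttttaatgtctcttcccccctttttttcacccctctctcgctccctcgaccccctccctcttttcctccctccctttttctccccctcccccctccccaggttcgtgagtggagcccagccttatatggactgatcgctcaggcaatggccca

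In these stretches Isl1 had 1 E-box, at position -103 from the start site, and 2 TAAT cores counted on both strands. Neurod1 had 1 E-box, at position -242, with the letters CATATG, and 0 TAAT cores. Nkx2-2 had 3 E-boxes, of which 1, at position -220, is CAGATG or CATATG on one of the strands. Over windows of 300 bases, which also hold 50 bases after the start site, a promoter was listed for 7 of the 9 members, 8 windows in all since Pax6 has 2. CANNTG, whose complement is CANNTG itself, was present in 6 of the 8, against 72.3% of the 32851 windows of all genes. CAGATG or CATATG, 2 forms of CANNTG, searched on both strands, was present in 2 of the 8, against 20.3%. TAAT, on both strands, was present in 6 of the 8, against 58.0%. A match is a run of letters and no evidence of binding.

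On each array 66.6% to 75.6% of probes passed as well above background, the call by which the extraction software separates a spot from its surroundings, and the 75th percentile of intensity ranged from 3005 to 3539. Levels below are log2 of the processed intensity relative to the 75th percentile of the same array, and the small number of arrays limits the precision. All arrays lie on 1 slide, with the wild-type arrays in one row and the knockout arrays in the other, so slide row and genotype cannot be told apart. Of the 12 general epithelial markers fixed for the check of tissue, such as Epcam, Krt20 and Cdx2, all 12 were well above background on all 6 arrays. Of 27916 tested features, 41 were higher and 17 lower in knockout tissue at an adjusted p under 0.05 (limma). None of the 9 members was among them, where 0.208% of all features were called, 0.147% higher and 0.0609% lower. With an unadjusted p under 0.05 in the same limma fit, 2 members were higher (Neurod1 and Fev, against 3.18% of all features) and 1 was lower (Isl1, against 7.55%). The median log2 change of the members was 0.20, with 7 above and 2 below 0, and that of all features was -0.061, with 38.5% above 0.

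Isl1, a LIM-homeodomain factor of endocrine cells, had the smallest p of the list and the lowest log2 change. Its tested probe, A_52_P337246, read -4.90, -5.02 and -5.08 in the wild-type mice, given in the order of replicates 1 to 3 here and throughout, and -5.76, -5.82 and -6.05 in the knockout mice. The 3 knockout arrays all lay below the 3 wild-type arrays, with a gap larger than the spread within either group (SD 0.090 and 0.15, n = 3 each). Groups that do not overlap, with knockout lower, were found for 12.5% of all features. The log2 change was -0.88 ± 0.13 (SE, n = 3 and 3), 0.544 of the wild-type level with a 95% confidence interval of 0.441 to 0.672. It did not pass over all features (limma, unadjusted p = 0.000252, adjusted p = 0.0773), and 0.312% of features had a smaller p. With arrays weighted by quality the adjusted p was 0.0415, the only 1 of 19 alternatives that took it past the threshold, over a range of 0.0415 to 0.519. Slide columns 1 and 2 each hold 1 mouse of either genotype, replicates 1 and 2, while the replicates 3 lie in columns of their own and drop out of a fit with the column as a block. The change in that fit was -0.83, with -0.86 between the arrays of column 1 and -0.80 between those of column 2.

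The Isl1 signal is dim. Its processed intensity was 101, 95.3 and 99.4 in the wild-type mice and 65.1, 55.1 and 51.8 in the knockout mice, close to the lowest intensities that passed as well above background, 22.2 to 51.0 per array. The probe was nonetheless well above background on all 6 arrays. With normexp background correction, which adds an offset of 50 to every intensity, the log2 change was -0.32 (adjusted p = 0.519). The second Isl1 probe, A_66_P112935, was well above background on 1 wild-type array and on 0 of the 3 knockout arrays. It read -8.12, -7.44 and -6.56 in wild-type mice and -6.57, -7.02 and -7.17 in knockout mice. These groups overlap, and the probe was too dim to test, so the Isl1 difference rests on 1 probe.

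**Figure D1:**
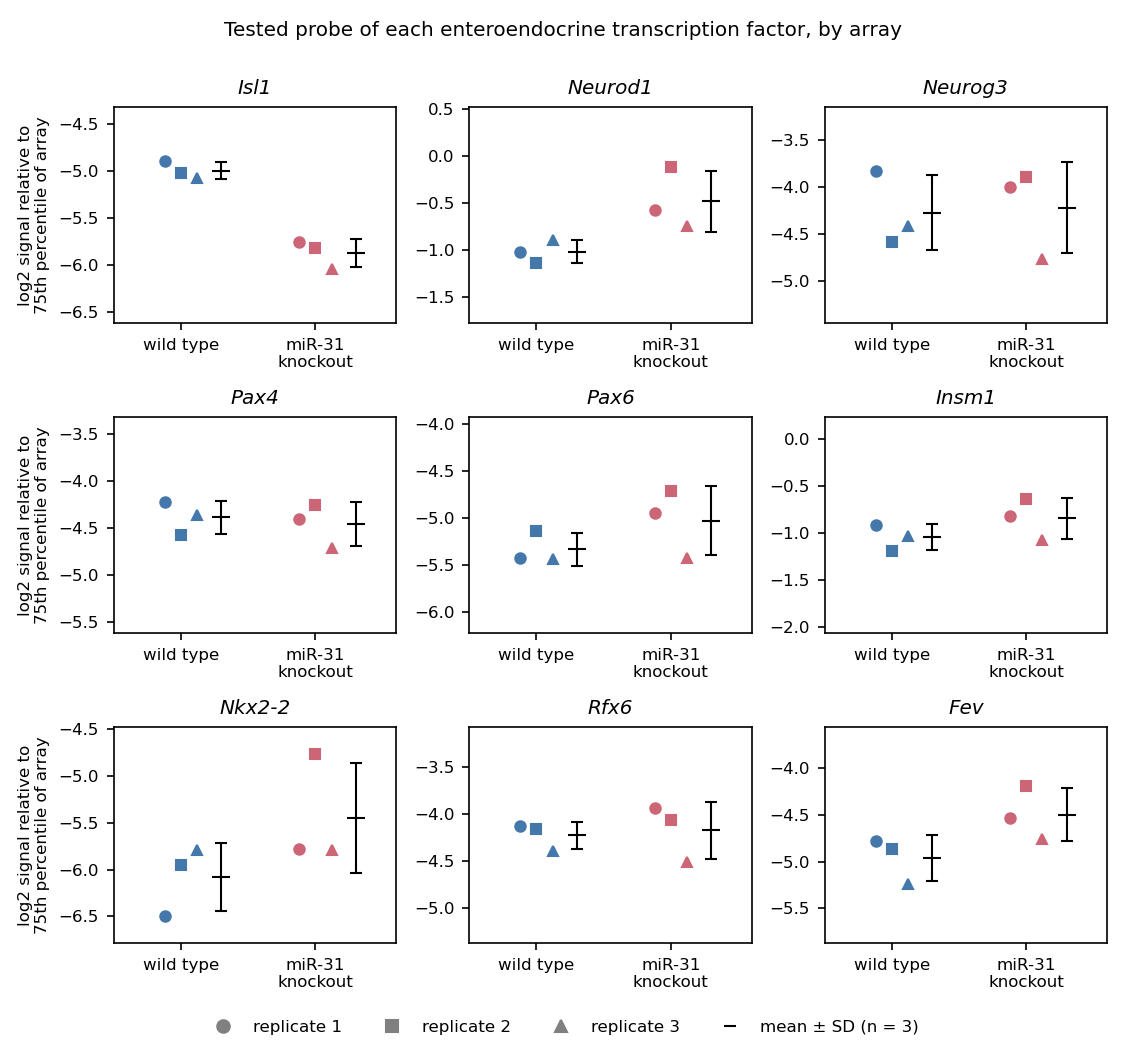
Level of the tested probe of each member on each array, as log2 signal relative to the 75th percentile of the array. Blue points are the 3 wild-type and red points the 3 knockout mice, black bars are the mean ± SD, and every panel spans the same range; Isl1 is lower on all 3 knockout arrays, and knockout replicate 3 (triangle) is the lowest knockout array in all 9 panels.

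The basic helix-loop-helix factors come next, since they start the programme. Neurog3, which sets the endocrine fate, read -3.83, -4.59 and -4.42 in wild-type mice and -4.00, -3.89 and -4.77 in knockout mice. The groups overlapped throughout, with a log2 change of 0.056 ± 0.29 (SE, n = 3 and 3; adjusted p = 0.966) and a 95% confidence interval of -0.64 to 0.75. Its sign turned in 4 of 6 fits that each omitted 1 array. Neurod1, a direct target of Neurog3, read -1.02, -1.14 and -0.90 in wild-type mice and -0.58, -0.12 and -0.75 in knockout mice. Every knockout array lay above every wild-type array, which held for 5.56% of all features, although the gap between knockout replicate 3 and wild-type replicate 3 was small. The log2 change of Neurod1 was 0.54 ± 0.18 (SE, n = 3 and 3), a ratio of 1.45 with a 95% confidence interval of 1.07 to 1.96, and did not pass (limma, unadjusted p = 0.0222, adjusted p = 0.377). It was positive under all 19 alternatives, at 0.36 when knockout replicate 2 was omitted, which moved it by over 1.5 times, and 0.67 when replicate 3 was.

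The Pax factors pair a DNA-binding paired domain with a homeodomain. Pax4 read -4.23, -4.57 and -4.36 in wild-type mice and -4.40, -4.25 and -4.71 in knockout mice, with a log2 change of -0.067 ± 0.16 (SE, n = 3 and 3; adjusted p = 0.918). The interval of -0.46 to 0.32 spans 0, and the sign turned with array weights, with the slide column as a block and without wild-type replicate 1 or knockout replicate 3. Pax6 read -5.43, -5.13 and -5.44 in wild-type mice and -4.95, -4.71 and -5.43 in knockout mice by its tested probe. Knockout replicates 1 and 2 were above all wild-type arrays and knockout replicate 3 was among them. The log2 change of Pax6 was 0.31 ± 0.20 (SE, n = 3 and 3; adjusted p = 0.642), at 0.15 when knockout replicate 2 was omitted and 0.51 when replicate 3 was.

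The probes of Pax6 do not give 1 pattern. A much brighter probe, A_52_P565559, was well above background on all 6 arrays but marked as an outlier by the extraction software on all 6, and was therefore not tested. It read -2.03, -1.15 and 0.80 in wild-type mice and -1.13, -0.11 and 0.18 in knockout mice, a spread of 1.45 (SD, n = 3) within the wild-type group against 0.17 for the tested probe. With marked spots kept, this probe stood for the gene, at a log2 change of 0.44 ± 0.70 (SE, n = 3 and 3). The other 2 probes were well above background on 1 and 2 wild-type arrays and on 0 knockout arrays. 1 of them, A_55_P2719489, read -6.61, -6.33 and -6.20 in wild-type mice and -6.78, -6.52 and -7.16 in knockout mice. These groups overlap, and the probe was too dim to test. Its "at least" fold, wild type over knockout, came to 1.19. That value averages in wild-type replicate 1, where the probe was not well above background, so it is no firm minimum. For the other no bound above 1 was obtained.

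**Figure D2:**
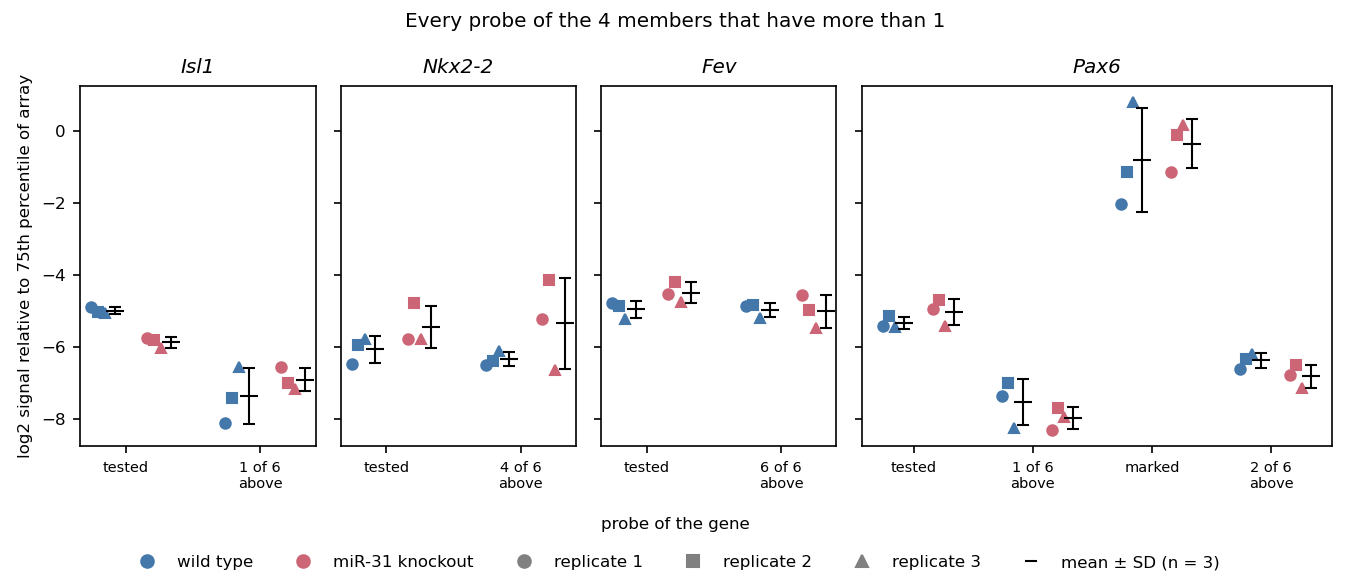
Level on each array of every probe of Isl1, Nkx2-2, Fev and Pax6, as log2 signal relative to the 75th percentile of the array, with the tested probe first. Labels under the other probes give the arrays on which the probe was well above background, or "marked" for the Pax6 probe set aside on all 6 arrays; black bars are the mean ± SD, and the second Isl1 probe overlaps between groups where the tested one does not.

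Insm1, a zinc finger repressor, and Nkx2-2, an NK2 homeodomain factor, both act early in endocrine precursors. Insm1 read -0.91, -1.19 and -1.03 in wild-type mice and -0.82, -0.64 and -1.07 in knockout mice. Knockout replicate 3 lay within the wild-type range and the other knockout arrays above it, with a log2 change of 0.20 ± 0.15 (SE, n = 3 and 3; adjusted p = 0.683) and a 95% confidence interval of -0.16 to 0.57. Insm1 was at 0.0998 when knockout replicate 2 was omitted, 0.13 when wild-type replicate 2 was and 0.32 when knockout replicate 3 was. Nkx2-2 read -6.49, -5.95 and -5.79 in wild-type mice and -5.78, -4.77 and -5.79 in knockout mice. Its tested probe was not well above background in wild-type replicate 1, and knockout replicate 2 stood apart above the other arrays. The log2 change of Nkx2-2 was 0.63 ± 0.32 (SE, n = 3 and 3; adjusted p = 0.536), the largest positive value of the list, and 0.29 without knockout replicate 2. A second Nkx2-2 probe read -6.50, -6.39 and -6.12 in wild-type mice and -5.24, -4.15 and -6.66 in knockout mice. Here too knockout replicate 2 was highest, while knockout replicate 3 was below every wild-type array (adjusted p = 0.597 over all probes, limma). This second probe was well above background on only 2 wild-type and 2 knockout arrays. Its processed intensity was 33.2 in wild-type replicate 1 and 33.7 in knockout replicate 3, so their order is read from signal near background.

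Rfx6 and Fev complete the list. Rfx6, a winged-helix factor, read -4.13, -4.16 and -4.39 in wild-type mice and -3.93, -4.06 and -4.51 in knockout mice. Its knockout values lay on both sides of the wild-type range, with a log2 change of 0.057 ± 0.18 (SE, n = 3 and 3; adjusted p = 0.939) that ranged from -0.061 to 0.23 over the fits omitting 1 array each. Fev, an ETS factor known from serotonin neurons, read -4.79, -4.86 and -5.24 in wild-type mice and -4.54, -4.20 and -4.76 in knockout mice by its tested probe. The groups did not overlap, with knockout higher, which held for 5.56% of all features. Knockout replicate 3 exceeded wild-type replicate 1 by only a small margin. The log2 change of Fev was 0.46 ± 0.19 (SE, n = 3 and 3; limma, unadjusted p = 0.0483, adjusted p = 0.460). A second Fev probe, well above background on all 6 arrays, read -4.87, -4.84 and -5.19 in wild-type mice and -4.58, -4.99 and -5.49 in knockout mice. That probe overlapped between groups, at -0.052 (adjusted p = 0.962 over all probes, limma), and with the mean of both probes the change of Fev was 0.21. With normexp it was 0.25.

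The members shared an order among the knockout mice. Knockout replicate 3 had the lowest of the 3 knockout values for all 9 members, whereas it was the lowest for 36.9% of all features measured on the 3 arrays. Knockout replicate 2 had the highest value of all 6 arrays for 5 members, against 17.8% of features. Averaged over the 9 members, as deviation from the mean of each gene, the knockout arrays stood at 0.10, 0.36 and -0.24 and the wild-type arrays at -0.0053, -0.11 and -0.11. The 3 knockout mice therefore spanned a wider range than the 3 wild-type mice, and the wild-type range lay inside it.

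Leaving out knockout replicate 3 gave 8 positive members and 1 negative, with a median of 0.33, and leaving out knockout replicate 2 gave 6 and 3, with a median of 0.0998. Omitting the lowest knockout array must raise every change. Omitting replicate 2, the highest knockout array for 7 members, must lower those 7. These shifts therefore restate the order of the arrays and are no separate result. Without knockout replicate 3, Neurod1, Pax6 and Fev were higher and Isl1 lower in limma with an unadjusted p under 0.05. Higher and lower together, 12.5% of all features had such a p there. Without knockout replicate 2, 0 members were higher and Isl1 was lower by that measure, where 8.52% of all features had such a p in either direction. In both fits 0 members passed over all features. The titles carry animal numbers, which share their first 3 digits in replicates 1 and 2 of both genotypes and begin differently in both replicates 3. The numbers of the replicates 3 also differ from each other in these digits. What these numbers mean is not given in the labels. The share of marked spots divides the arrays in the same way. It was 17.3%, 15.5% and 4.95% on the wild-type arrays and 17.0%, 12.8% and 7.44% on the knockout arrays, and its part in the order was not tested. Between the mice that share digits, 8 of 9 members were above 0, with a median of 0.32, where the median of all features was -0.10. These are the same arrays that the fit with the slide column as a block rests on. The member changes are therefore those of that fit and no separate check. The other 2 mice are the replicates 3, so a comparison of them rests again on the low knockout array, with 1 mouse per genotype. Between them 3 of 9 were above 0, with a median of -0.040, where the median of all features was -7.39e-05. Isl1 was lower in both comparisons, at -0.83 and -0.97, Neurod1 was at 0.73 and 0.15, and Nkx2-2 at 0.95 and -0.0027.

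**Figure D3:**
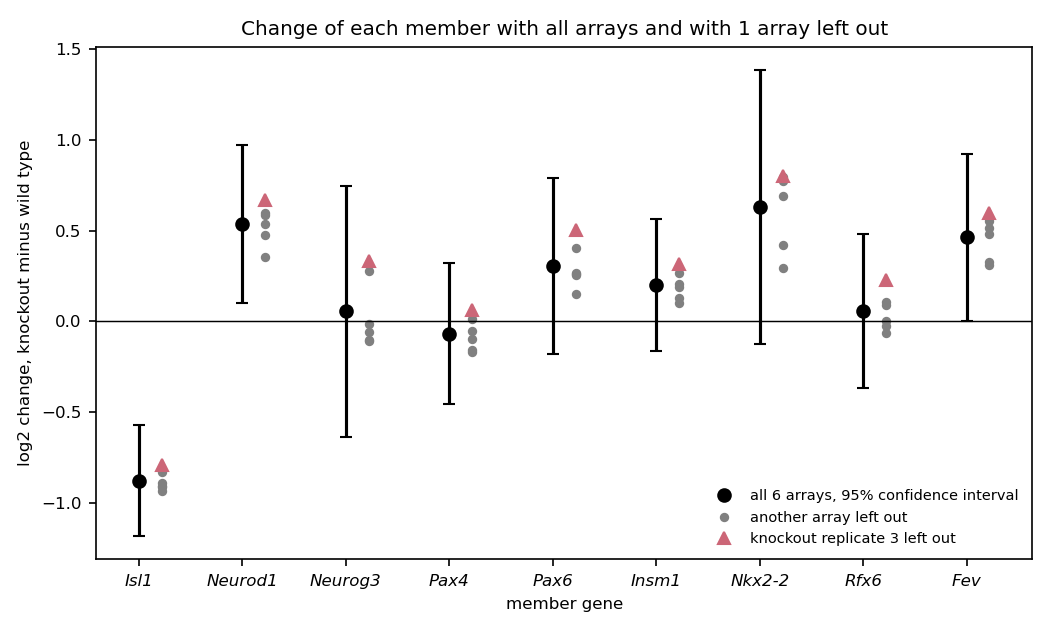
Log2 change of each member, knockout minus wild type. Black points and bars are the estimate from all 6 arrays with its 95% confidence interval, grey points leave out another array, and red triangles leave out knockout replicate 3. Isl1 stays between -0.93 and -0.79, and the triangle is the highest of the values with 1 array left out for all 9 genes. It must lie above the estimate, since knockout replicate 3 is the lowest knockout array for all 9.

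Other transcription factors of endocrine differentiation were measured from a list of 18, all of which were tested. Of these, 0 passed (limma), and the median log2 change was 0.062. At an unadjusted p under 0.05 in limma, 1 was higher and 3 were lower, against 3.18% and 7.55% of all features. Knockout replicate 3 was the lowest knockout array for 9 of the 17 measured on all 3, against 36.9% of all features. The mean deviation of the list was 0.22 in knockout replicate 2 and -0.13 in knockout replicate 3, the highest and lowest of all arrays. Prox1, a homeodomain factor, read -4.97, -5.51 and -5.08 in wild-type mice and -4.02, -3.82 and -4.30 in knockout mice. It was higher in all 3 knockout mice, which held for 5.56% of all features, at 1.14 ± 0.19 (SE, n = 3 and 3, limma, adjusted p = 0.125). Pdx1, a homeodomain factor better known from duodenum and pancreas, was at -0.70 ± 0.26 and Nkx6-3 at -0.36 ± 0.15 (SE, n = 3 and 3; adjusted p = 0.405 and 0.457). Pdx1 was at -0.42 when knockout replicate 3 was omitted and at -0.39 with the slide column as a block. Of the genes that choose secretory fate upstream of Neurog3, Atoh1 and the Notch pathway among them, 15 of 16 were tested. In limma 0 passed and 0 had an unadjusted p under 0.05, and the median was 0.037. Hey1, a Notch target, was at -0.63 ± 0.33, Spdef, a goblet cell factor, at 0.26 ± 0.17 and Hes5, another Notch target, at 0.24 ± 0.16 (SE, n = 3 and 3). Each moved by over 1.5 times with single arrays: Hey1 to -0.33 and -0.97 when knockout replicates 1 and 3 were omitted in turn, and Spdef and Hes5 both to 0.12 when knockout replicate 2 was.

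The products of endocrine cells were described from a list of 26 hormone and granule genes, 24 of them tested. None passed (limma), and the median log2 change was 0.049, with 14 above and 10 below 0. At an unadjusted p under 0.05 in limma, 7 were higher and 1 was lower, against 3.18% and 7.55% of all features. Scg2, a granule protein gene, read -5.11, -4.71 and -4.44 in wild-type mice and -5.87, -6.66 and -6.67 in knockout mice. Its probe was well above background on 5 of 6 arrays, and it was the 1 product that was lower by this measure, as Isl1 was among the members, at -1.65 ± 0.27 (SE, n = 3 and 3; adjusted p = 0.107). Slc18a1, the vesicular monoamine transporter of serotonin cells, was at 0.63 ± 0.18 and Chga, chromogranin A, at 0.59 ± 0.18 (SE, n = 3 and 3; adjusted p = 0.306 and 0.339), both without overlap and higher. Groups that do not overlap, with knockout higher, were found for 5.56% of all features. The order of the knockout arrays was close to that of the members. Knockout replicate 3 was the lowest of them for 16 of 23 products, against 37.3% of features measured on all 6 arrays. Knockout replicate 2 was the highest for 16 of 23, against 39.9%. Isl1 has been linked in mouse gut to cells that make glucagon-like peptide, somatostatin and cholecystokinin, and these genes were looked up for that reason, outside the rule for named genes. Gcg was at 0.0027 ± 0.15, with a 95% confidence interval of -0.34 to 0.35. Sst was at -0.042 ± 0.19 and Cck at 0.39 ± 0.25 (SE, n = 3 and 3), the latter at 0.14 when knockout replicate 2 was omitted. The signs of Gcg and Sst turned under several settings, array weights for Gcg and array median scaling for Sst among them.

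**Figure D4:**
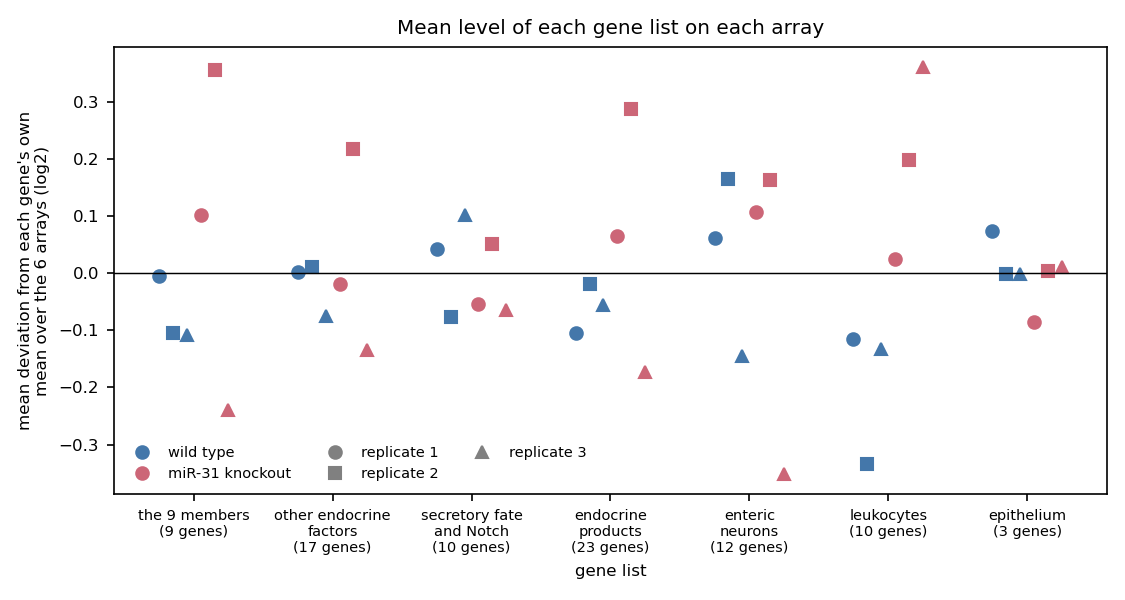
Mean deviation of each gene list on each array from the mean of each gene over the 6 arrays, on the log2 scale, for genes measured on all arrays. Blue symbols are wild-type and red symbols knockout mice. Knockout replicate 2 is the highest and knockout replicate 3 the lowest array for the members, the other endocrine factors and the endocrine products.

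Markers of other cells were set beside these results, and their part in them was not tested. Enteric neurons share neurosecretory genes with endocrine cells. Of 16 neuronal markers 12 were tested, 0 passed and 0 had an unadjusted p under 0.05 (limma), with a median log2 change of -0.037 and a summed level of 8.77 to 15.9 in wild-type and 13.8 to 14.7 in knockout arrays, in units of the 75th percentile. Vip was not well above background on any array, and Stmn2 and Gap43 were so on at most 2. Nos1 was at -0.27 ± 0.19 (SE, n = 3 and 3), at -0.43 when knockout replicate 2 was omitted and -0.090 when replicate 3 was. Knockout replicate 3 was also the lowest knockout array for 10 of the 12 neuronal markers, against 36.9% of all features. Its mean deviation over these 12 was -0.35, the lowest of all arrays. Its neuronal sum, over all 16 markers with marked spots included, was nonetheless 14.7, the highest of the knockout arrays. The sum and the order of the markers therefore differ. Of 6 glial markers 4 were tested, and Sox10 and S100b were above background on no array. The glial sum was 1.75 to 2.01 in wild-type and 1.76 to 2.03 in knockout arrays. Of 11 stromal and muscle markers 8 were tested, 0 passed and 1 was lower by unadjusted p (limma), against 7.55% of all features. The list had a median of -0.22 and a sum of 5.26 to 5.50 in wild-type and 3.85 to 6.25 in knockout arrays, and Myh11 was at -0.47 ± 0.12. Pdgfra was above background on no array.

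Among leukocyte markers 11 of 12 were tested, 0 passed, and 3 were higher and 1 lower by unadjusted p (limma), against 3.18% and 7.55% of all features. Of the tested markers 8 were above 0, with a median of 0.20. The sum was 2.99 to 3.53 in wild-type and 3.14 to 4.13 in knockout arrays. Cpa3, a mast cell protease, was at 2.14 ± 0.28 (SE, n = 3 and 3, limma, adjusted p = 0.0519). It passed under 6 of the 18 alternatives that tested it, and over all 18 the adjusted p in limma ranged from 0.0162 to 0.272. Cpa3 was well above background on at most 4 of 6 arrays. Its wild-type values were -6.96, -7.21 and -6.50. The lowest levels that passed as well above background on those arrays were -6.45, -7.13 and -7.38, so its change is measured against signal near background. Unlike the endocrine lists, the leukocyte mean was highest in knockout replicate 3. Tuft cell markers, of another rare epithelial lineage, were below 0 for 8 of 9, with a median of -0.24, a sum of 2.91 to 4.54 in wild-type and 2.88 to 3.55 in knockout arrays, and Dclk1 at -0.47 ± 0.16 (SE, n = 3 and 3). Endothelial markers were tested for 2 of 5 genes, since Cdh5, Kdr and Tek were above background on no array, with a sum of 0.136 to 0.201 in wild-type and 0.135 to 0.165 in knockout arrays. The 4 tested goblet cell markers had a median of 0.13 and the 5 tested general epithelial markers one of -0.028. The remaining goblet and epithelial markers were left untested because their spots were marked on too many arrays. None of the tuft, endothelial, goblet or epithelial genes passed (limma). At an unadjusted p under 0.05 in limma, 2 tuft markers were lower, against 7.55% of all features, and 0 of the others had such a p.

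Likeness to each member was measured over the 6 arrays, among 12643 other genes with a symbol, as the root mean square difference between deviations from each gene's own mean, on the log2 scale. The nearest to Isl1 were Orc1, a subunit of the origin recognition complex, at 0.055 and Gm30456 at 0.060. Nearest to Neurod1 were Ripply1 at 0.062 and Atp8b2 at 0.071, and nearest to Nkx2-2 were Syn1, a synaptic vesicle protein gene, at 0.088 and Plekhf1 at 0.092. For Fev they were Usp37 at 0.031 and Slc39a14, a zinc transporter gene, at 0.090. Kcnj4 and Recql5 were nearest to Pax4 at 0.039 and 0.040, Wdr83os and Fgr to Pax6 at 0.043 and 0.049, and Prxl2b and Fam120c to Insm1 at 0.024 and 0.035. Clec7a and Vwa5b2 were nearest to Neurog3 at 0.076 and 0.12, and Tnfrsf14 and Tmem104 to Rfx6 at 0.056 and 0.058. With 6 arrays and this many genes, the distances are a description only.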

How the data were processed

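Each of the 6 samples is 1 Agilent one-colour array of TRIzol-extracted, amplified, Cy3-labelled RNA, per the labels. The deposited scanner files give a processed intensity per spot, from Agilent Feature Extraction 11.5.1.1 per the file headers (10.7 in the submitters' processing notes). The authors' deposited value matrix repeats that linear intensity for each probe, with 99.7% of entries within 0.01 (log2) of it and medians of 231, 234, 247, 259, 228 and 241, so neither its scale, centring nor direction is open.

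Of 62976 spots, 3671 were controls and were dropped, as were spots marked non-uniform, outlying or manually. Accessions matched a RefSeq symbol (GRCm38.p6) for 33767 of 56605 probes. The array design is older, so no gene coordinates of it are given. Intensities were scaled to the 75th percentile of each array in log2. A probe was tested if well above background on 3 or more arrays and unmarked on at least 2 per group, and the brightest stood for its gene. Genotypes were compared with limma 3.58.1 in R 4.3.3 (packages statmod 1.5.0 and data.table, version 1.17.8), two-sided, with Benjamini-Hochberg adjustment over 27916 features at 0.05, after a test on simulated data. An "at least" fold sets the bright group against the detection limit of each array, or the dim probe's own value if higher. Summed marker levels use each gene's brightest probe, marked spots included.

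The members and lists were chosen with earlier results of these data known. Named genes are all members, up to 3 genes of each other list with the smallest p, and the 2 genes most like each member; some list genes are not reported here. The labels do not say how the mice are related, so p-values measure the spread between these mice.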

Additional observations from a re-analysis of the deposited data

How the results depend on the processing

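Alternatives comprised 13 other settings and 6 fits with 1 array left out. Isl1, Neurod1, Pax6, Insm1, Nkx2-2 and Fev kept their direction in every fit that tested them; Nkx2-2 was not tested where a probe had to be well above background on all 6 arrays. Only Isl1 under array weights (-0.87) crossed the threshold, which gives 1 called member there. Pax4 turned to 0.019 with array weights and 0.073 with the slide column as a block, which rests on replicates 1 and 2 alone, and ranged from -0.17 to 0.061 with 1 array left out. Rfx6 turned to -0.033 with normexp and ranged from -0.061 to 0.23, and Neurog3 from -0.11 to 0.33, with 1 array left out. Gcg turned to -0.017 with normexp and -0.011 with array weights, and Sst to 0.0054 with array median scaling and 0.0044 with the slide column; with 1 array left out they ranged from -0.082 to 0.10 and from -0.19 to 0.11.

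Features called higher and lower were 73 and 27 with normexp, 25 and 8 when well above background on all 6 arrays, 70 and 36 with trend and robust variance, 64 and 41 with array weights and 130 and 86 with the slide column, and 6 were lower without the filter on dim probes. With 1 array left out they ranged from 20 to 61 higher and from 5 to 48 lower. Among endocrine products 1 was called with normexp, and among leukocyte markers 1 with normexp, trend and robust variance, array weights, the slide column or the animal number block, and 0 or 1 with 1 array left out. With the slide column the median of the secretory fate list was 0.13 and of the glial list -0.18, and the epithelial median was 0.058 with quantile normalization and 0.019 with array median scaling. With 1 array left out the medians ranged from -0.047 to 0.085 (other endocrine factors), from -0.057 to 0.084 (secretory fate), from -0.02 to 0.17 (endocrine products), from -0.11 to 0.13 (neurons), from -0.52 to 0.11 (glia), from -0.30 to 0.039 (stroma and muscle), from -0.015 to 0.35 (leukocytes), from -0.056 to 0.034 (epithelium), so that each of these medians took both signs. Of named genes, normexp moved Pax6 to 0.17, Prox1 to 0.64, Pdx1 to -0.31, Hey1 to -0.25, Scg2 to -0.82, Myh11 to -0.29 and Cpa3 to 0.90. The slide column moved Insm1 to 0.32, Nkx2-2 to 0.95, Hey1 to -1.14, Spdef to 0.45, Hes5 to 0.42, Nos1 to -0.12 and Dclk1 to -0.27. The mean of a gene's probes moved Hes5 to 0.084 and Myh11 to -0.28. The causes were not tested. The median of all features was -0.10 without wild-type replicate 3. The normexp setting used the median spot signal, since the files used here hold no mean signal. The labels give no replicate numbers shared between the groups, so mice were not paired by replicate. Slide column and animal number were the blocks used, and neither changed the call of a member. The animal number block set the mice that share digits against both replicates 3, whose own numbers begin differently. Signal near background limits Isl1, Nkx2-2 and Pax6.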
